A study of Mus musculus with 12 samples.

Results

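The genes described here were 10 regulators of the entry into the cell cycle, namely the D-type cyclin genes *Ccnd1*, *Ccnd2* and *Ccnd3*, the E-type cyclin gene *Ccne1*, the inhibitor genes *Cdkn1a*, *Cdkn1b*, *Cdkn2a* and *Cdkn2b*, and *Trp53* with its antagonist *Mdm2*. They were chosen by name, and all 10 were found by symbol among the 10697 genes of the table. The libraries came from primary mouse adult fibroblasts (MAFs), wild-type cells of the C57BL6/j strain that were grown out of tissue pieces. The 6 libraries of the thymol group were from cells exposed for 24 h to 100 µM thymol, a phenolic monoterpene of thyme oil, dissolved in DMSO. The 6 libraries of the DMSO group were from cells given the same volume of solvent. The age of the mice, the tissue and the number of animals behind the 12 libraries are not given in the sources used here, so the p-values measure the spread between libraries, which may be technical.

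D-type cyclins bind and activate the kinases CDK4 and CDK6 in G1 phase, and cyclin E does the same for CDK2. Together they phosphorylate the retinoblastoma protein and release the E2F factors that drive the genes of DNA replication. The proteins p21 (*Cdkn1a*) and p27 (*Cdkn1b*) bind cyclin-CDK complexes, whereas p16 (*Cdkn2a*) and p15 (*Cdkn2b*) bind CDK4 and CDK6 themselves. The transcription factor p53 (*Trp53*) activates *Cdkn1a* and also *Mdm2*, whose product marks p53 for degradation, and fibroblasts kept in culture are known to accumulate several of the inhibitors.

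No change in transcript level with thymol was detected for any of these genes. In limma, 0 of the 10 genes passed an adjusted p-value of 0.05, against 2.22% of all 10697 genes (0.654% higher and 1.57% lower). *Mdm2* came nearest: it was higher with thymol by 0.13 on the log2 scale, or 9.27%, and it alone among the 10 had groups that did not overlap. The differences of the other genes ranged from -0.17 for *Cdkn2b* to 0.21 for *Ccne1*. At an unadjusted p-value under 0.05 there was 1 of 10 genes, *Mdm2*, against 11.8% of all genes, and groups that did not overlap were found for 1 of 10 genes, against 1.68% of all genes (0.524% higher and 1.16% lower). The median difference of the 10 genes was 0.053 (log2), that of all genes was 0.0026, and the median size of the difference regardless of sign was 0.085 for the 10 genes and 0.098 for all genes.

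Read totals recovered from the deposited values lay between 6240828 and 8064382 in the DMSO libraries and between 5435985 and 9049796 in the thymol libraries. Markers of fibroblasts and of macrophages were both present. Of 18 macrophage markers 18 were in the table, and their summed level was 20444 to 22308 CPM with DMSO and 20681 to 24580 CPM with thymol (CPM are reads scaled to a common library total). Of 18 fibroblast markers 16 were in the table (*Lum* and *Fap* were not), with sums of 17916 to 19008 CPM and 16747 to 17568 CPM, so that every thymol library lay below every DMSO library. Markers of keratinocytes (2 of 9), endothelium (2 of 8), T cells (0 of 8), adipocytes (1 of 8) and muscle (2 of 8) were mostly missing from the table. The sum of the muscle markers, which rests on 2 genes, was 133 to 160.0 CPM with DMSO and 93.2 to 125 CPM with thymol, also without overlap. In limma, 2 of 16 fibroblast markers and 1 of 2 muscle markers passed the adjusted threshold as lower with thymol. Of 18 macrophage markers, 3 were higher and 1 lower. Over all genes, 0.654% were higher and 1.57% lower. In such bulk libraries, fewer cells of a type and less RNA per cell cannot be told apart, and the part of cell composition in the values below was not tested.

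The levels of the genes spanned a wide range. QuantSeq reads the 3′ end of a transcript and gives about the same number of reads whatever its length. Levels of different genes can therefore be set roughly side by side on the log2 CPM scale. The annotation holds processed pseudogenes of *Ccnd3* and *Trp53*, with which reads could be shared. The places of these genes in the order, and the shares and ratios built on them, are therefore less certain. With DMSO, *Ccnd2* was highest (11.60 ± 0.044 log2 CPM, SD, n = 6), above 99.8% of all genes. It was followed by *Cdkn1a*, *Ccnd1*, *Mdm2*, *Cdkn2a*, *Ccnd3*, *Cdkn1b*, *Trp53*, *Ccne1* and *Cdkn2b*, the last at 4.61 ± 0.19 log2 CPM (SD, n = 6). Most neighbours in this order were clearly apart, since the higher gene exceeded the next in 12 of 12 libraries for 6 of the 9 steps. *Cdkn2a* and *Ccnd3* were not separated beyond their spread, with *Cdkn2a* above *Ccnd3* in 9 of 12 libraries and a mean distance of 0.17 ± 0.20 (log2, SD, n = 6 DMSO libraries). *Trp53* and *Ccne1* were not separated either, with *Trp53* above *Ccne1* in 5 of 12 libraries and a mean distance of 0.056 ± 0.32 (log2, SD, n = 6 DMSO libraries). *Cdkn1b* exceeded *Trp53* in 6 of 6 DMSO libraries, by 0.20 ± 0.085 (log2, SD), and in 10 of all 12 libraries.

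**Figure D1:**
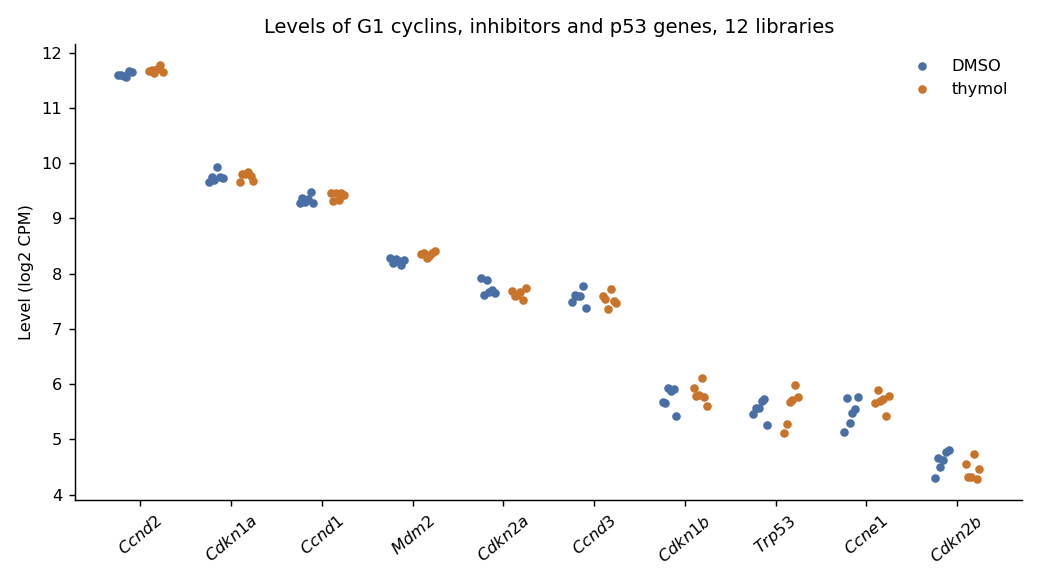
Level of each gene (log2 CPM, vertical axis) in the 6 DMSO libraries (blue points) and the 6 thymol libraries (orange points), with genes ordered from left to right by their mean with DMSO. *Ccnd2* stands near 11.6 and *Cdkn2b* near 4.6, and the distance between genes is much larger than that between the treatments.

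Among the D-type cyclins, which link growth factor signals to the cell cycle engine, *Ccnd2* supplied most of the transcripts. *Ccnd2* accounted for 78.7% ± 1.00 of the summed CPM of the D-type cyclins with DMSO and 79.2% ± 0.72 with thymol (mean ± SD of 6 libraries). *Ccnd1* accounted for 16.4% ± 0.61 and 16.4% ± 0.82, and *Ccnd3* for 4.84% ± 0.41 and 4.46% ± 0.37 (SD, n = 6 each). The proportions were therefore within the spread between libraries.

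*Ccnd2* (chromosome 6, 127125162 to 127152193, minus strand, GRCm38) ranged from 11.55 to 11.66 log2 CPM with DMSO (median 11.59) and from 11.63 to 11.78 with thymol (median 11.67). Of the 6 thymol libraries 3 lay above every DMSO library, and the other 3 were within the DMSO range. The difference was 0.079 ± 0.043 (log2, SE, limma adjusted p = 0.48), with a 95% interval from -0.0063 to 0.16. *Ccnd2* passed the threshold under 1 of 25 other ways of processing, quantile normalization, where the difference was 0.14 and the adjusted p-value 0.011 (range over all settings 0.011 to 0.88).

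*Ccnd1* (chromosome 7, 144929931 to 144939925, minus strand) stood at 9.27 to 9.47 log2 CPM with DMSO (median 9.33) and at 9.31 to 9.46 with thymol (median 9.43). All 6 thymol libraries were inside the DMSO range. The difference was 0.067 ± 0.049 (log2, SE, limma adjusted p = 0.67), and the 95% interval of the change ran from -2.14% to 12.1%. In the annotation, the 3′ end of *Ccnd1* overlaps the gene *LTO1* on the other strand, that of *Ccnd2* the antisense gene *Gm43126*, and that of *Ccnd3* the gene *Bysl*. Whether reads were counted by strand is not given in the sources used here, so these pairs are uncertain. *LTO1* and *Bysl* were expressed at lower levels than the cyclins (4.19 log2 CPM for *LTO1* and 5.39 for *Bysl* with thymol), and their differences were -0.015 and -0.052.

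*Ccnd3* (chromosome 17, 47505051 to 47599691, plus strand) was the least abundant D-type cyclin, at 7.37 to 7.78 log2 CPM with DMSO (median 7.59) and 7.35 to 7.72 with thymol (median 7.52). The groups overlapped, with 1 thymol library just below the DMSO range. The difference was -0.046 ± 0.067 (log2, SE, limma adjusted p = 0.88), and it was -0.14 among the odd-numbered libraries and 0.044 among the even-numbered ones. Reads of *Ccnd3* could also be shared with its processed pseudogene, as said above.

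*Ccne1* (chromosome 7, 38097984 to 38107534, minus strand) encodes cyclin E1, the partner of CDK2 at the G1/S boundary and itself an E2F target. It had the largest difference of the 10 genes. In DMSO libraries 1 to 6 its level was 5.13, 5.74, 5.30, 5.48, 5.54 and 5.76 log2 CPM, and in thymol libraries 1 to 6 it was 5.66, 5.89, 5.69, 5.73, 5.42 and 5.79. Thymol libraries 2 and 6 exceeded every DMSO library and the other 4 lay within the DMSO range. The difference was 0.21 ± 0.11 (log2, SE, unadjusted p = 0.054, limma adjusted p = 0.43), an increase of 15.6% with a 95% interval from -0.24% to 34.0%. The odd-numbered DMSO libraries averaged 5.32 log2 CPM and the even-numbered ones 5.66, with overlap between them, and this split was not tested. What odd and even numbers stand for is not given in the sources used here. Within the odd-numbered libraries the difference between treatments was 0.27 and within the even-numbered ones 0.15.

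**Figure D2:**
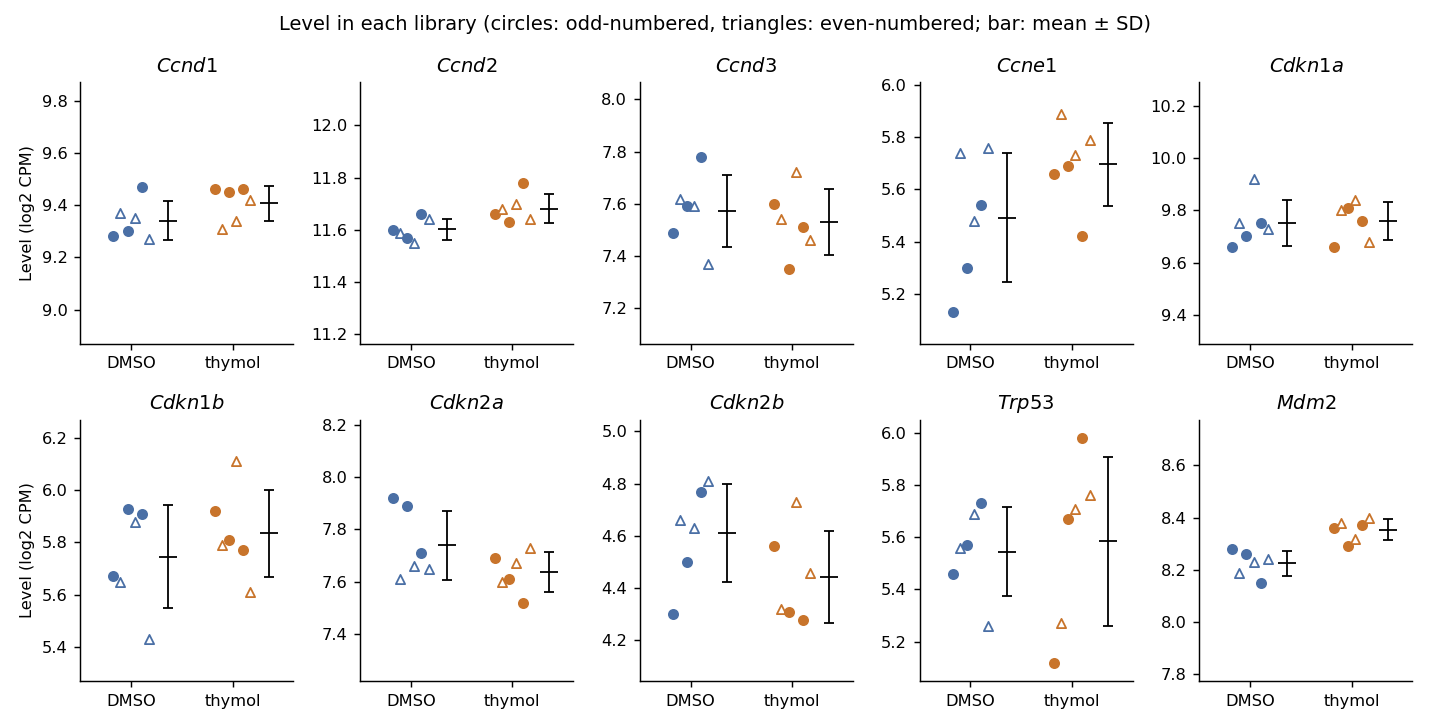
Level of each gene (log2 CPM) in each library, with DMSO in blue and thymol in orange, filled circles for odd-numbered and open triangles for even-numbered libraries, and black bars for the mean ± SD of 6 libraries. Every panel spans 1 log2 unit. In the *Mdm2* panel the 6 thymol libraries lie above the 6 DMSO libraries, and in the other 9 panels the groups overlap.

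*Cdkn1a* (chromosome 17, 29090976 to 29100727, plus strand) encodes p21, the inhibitor through which p53 halts the cycle. It was the gene with the smallest difference. DMSO libraries 1 to 6 had 9.66, 9.75, 9.70, 9.92, 9.75 and 9.73 log2 CPM, and thymol libraries 1 to 6 had 9.66, 9.80, 9.81, 9.84, 9.76 and 9.68. All 6 thymol libraries were within the DMSO range, whose upper end was set by DMSO replicate 4. The difference was 0.0073 ± 0.049 (log2, SE, limma adjusted p = 0.98), and the 95% interval of the change ran from -6.11% to 7.58%. The gene was read deeply, with 4457 to 7859 reads per library, and counting error was a small part of its spread (0.019 of a pooled SD of 0.082, log2).

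The 3′ reads of *Cdkn1a* do not show at which start a transcript began. The RefSeq table (GRCm38.p6) gives a pair of start sites for this gene. The 250 bases before each are shown because only those before the distal start hold the p53 motif described next. The p53 core pair, a pair of CATG with 6 bases of any kind between, was searched on both strands of windows of 300 bases around each start. It occurred in 0.712% of 32851 windows and, among the 11 windows of these genes, only in that of the distal *Cdkn1a* start. This match also lies upstream of the proximal start, outside its window. Whether p53 acts through this match, and on which start, was not tested. Nor was it tested whether p53 sites lie outside the windows of these genes. The match is shown in capitals.
*Cdkn1a* distal start, chr17:29090729-29090978, plus strand: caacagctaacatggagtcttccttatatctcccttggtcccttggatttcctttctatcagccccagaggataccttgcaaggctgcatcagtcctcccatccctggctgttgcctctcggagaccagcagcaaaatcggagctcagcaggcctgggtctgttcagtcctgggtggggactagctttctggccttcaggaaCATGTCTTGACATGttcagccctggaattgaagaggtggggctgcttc
*Cdkn1a* proximal start, chr17:29093519-29093768, plus strand: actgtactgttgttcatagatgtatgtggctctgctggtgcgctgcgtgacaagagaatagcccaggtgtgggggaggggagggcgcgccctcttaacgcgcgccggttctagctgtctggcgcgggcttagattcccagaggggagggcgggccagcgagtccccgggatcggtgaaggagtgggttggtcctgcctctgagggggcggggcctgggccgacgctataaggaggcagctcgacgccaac
The level given above cannot be divided between these starts. Of the 10 genes, 8 had a window in the RefSeq table, and *Ccnd1* and *Ccnd2* did not. The E2F motif in its forms TTTCGCGC and TTTGGCGC was found in 0 of the 11 windows (0.323% and 0.514% of all windows), and the GC box GGGCGG in 9 of 11 (35.7% of all windows). Other forms of the E2F motif were not searched, so the absence covers these forms only.

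*Cdkn1b* (chromosome 6, 134920401 to 134925513, plus strand) encodes p27, which is mainly controlled through its degradation. Its level was far below that of *Cdkn1a*, 16.1-fold lower with DMSO. It stood at 5.43 to 5.93 log2 CPM with DMSO (median 5.77) and at 5.61 to 6.11 with thymol (median 5.80). Only thymol replicate 4 was above the DMSO range. The difference was 0.090 ± 0.098 (log2, SE, limma adjusted p = 0.82). It was -0.00057 within the odd-numbered libraries and 0.18 within the even-numbered ones.

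*Cdkn2a* and *Cdkn2b* lie side by side on chromosome 4, with 11645 bases between them. *Cdkn2a* (89274471 to 89294653, minus strand) encodes a pair of unrelated proteins from different first exons: p16, a CDK4 and CDK6 inhibitor, and p19ARF, which binds and restrains MDM2. The coding transcripts start at 89294653 and 89282192, but their annotated 3′ ends differ by only 70 bases, so 3′ reads gave 1 value for both. The 250 bases before each start in the RefSeq table are shown to make clear how unlike these sequences are. Their GC content is 78.4% before the distal start and 60.0% before the proximal one. The RefSeq distal start lies downstream of 89294653, so the sequence shown for it ends inside the transcript given above. Neither sequence holds the p53 letters or either of the E2F forms searched, so no base is in capitals. Other E2F forms, which the sequences may hold, were not searched.
*Cdkn2a* distal start (p19ARF transcript), chr4:89294620-89294869, minus strand: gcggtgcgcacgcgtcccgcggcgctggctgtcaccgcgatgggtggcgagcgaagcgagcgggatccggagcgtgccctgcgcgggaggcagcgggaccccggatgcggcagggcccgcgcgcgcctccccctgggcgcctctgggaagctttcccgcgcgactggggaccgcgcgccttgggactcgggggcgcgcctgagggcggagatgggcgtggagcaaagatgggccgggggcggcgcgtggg
*Cdkn2a* proximal start (p16 transcript), chr4:89282193-89282442, minus strand: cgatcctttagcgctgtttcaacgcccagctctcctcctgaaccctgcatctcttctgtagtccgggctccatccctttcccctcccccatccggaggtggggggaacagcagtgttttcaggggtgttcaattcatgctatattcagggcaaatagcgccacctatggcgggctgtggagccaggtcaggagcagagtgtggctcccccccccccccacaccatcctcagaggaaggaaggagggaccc

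*Cdkn2a* was 7.92, 7.61, 7.89, 7.66, 7.71 and 7.65 log2 CPM in DMSO libraries 1 to 6 and 7.69, 7.60, 7.61, 7.67, 7.52 and 7.73 in thymol libraries 1 to 6. DMSO replicates 1 and 3 stood above all other libraries, and 3 thymol libraries lay below every DMSO library. The difference was -0.10 ± 0.063 (log2, SE, limma adjusted p = 0.55), with a 95% interval from -0.23 to 0.021. Among the odd-numbered libraries it was -0.23 and among the even-numbered ones 0.024, and neither value passed the threshold.

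*Cdkn2b* (89306299 to 89311039, minus strand), which encodes p15, was the lowest of the genes, with 116 to 195 reads per library. It ranged from 4.30 to 4.81 log2 CPM with DMSO (median 4.65) and from 4.28 to 4.73 with thymol (median 4.39). The groups overlapped, with 5 of 6 thymol libraries within the DMSO range. The difference was -0.17 ± 0.14 (log2, SE, limma adjusted p = 0.72). Its 95% interval, from -26.5% to 7.76%, was the widest of the 10, so a moderate decrease was not excluded.

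*Trp53* (chromosome 11, 69580359 to 69591873, plus strand) had the largest spread of the genes with thymol, though not with DMSO. DMSO libraries 1 to 6 had 5.46, 5.56, 5.57, 5.69, 5.73 and 5.26 log2 CPM, and thymol libraries 1 to 6 had 5.12, 5.27, 5.67, 5.71, 5.98 and 5.76. The thymol libraries thus spread to both sides of the DMSO libraries, with 2 above and 1 below all of them. The SD over 6 libraries was 0.32 with thymol and 0.17 with DMSO, where counting error alone at the mean read number would give 0.080. The difference was 0.039 ± 0.11 (log2, SE, limma adjusted p = 0.96), and without thymol replicate 5, the highest, it was -0.040. The transcript level says nothing of the p53 protein, whose amount is set mainly by MDM2.

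*Mdm2* (chromosome 10, 117688875 to 117710758, minus strand) encodes the ubiquitin ligase of p53 and is itself a p53 target. Its level was 8.28, 8.19, 8.26, 8.23, 8.15 and 8.24 log2 CPM in DMSO libraries 1 to 6 and 8.36, 8.38, 8.29, 8.32, 8.37 and 8.40 in thymol libraries 1 to 6. All 6 thymol libraries were above all 6 DMSO libraries, with a narrow gap between DMSO replicate 1 and thymol replicate 3. The difference was 0.13 ± 0.053 (log2, SE), with a 95% interval from 1.56% to 17.6% higher. The unadjusted p-value was 0.019 and the limma adjusted p-value 0.27, and by p-value it took rank 730 among all genes. The spread of *Mdm2* was small (SD 0.046 in the DMSO group and 0.041 in the thymol group, 6 libraries each), and pooled over both groups it was the smallest of the 10 genes (0.044, against 0.049 for *Ccnd2*). The SE from its own values alone was 0.025, smaller than the 0.053 of limma, which draws the spread of a gene towards that of genes of like level. An exact permutation test, two-sided and run over every relabelling of the libraries, gave p = 0.00216, the smallest that 6 against 6 libraries allow, and after adjustment over all genes it was 0.13. The difference lay between 0.11 and 0.15 in all 25 other ways of processing, odd- and even-numbered libraries included, and the adjusted p-value lay between 0.13 and 0.82.

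**Figure D3:**
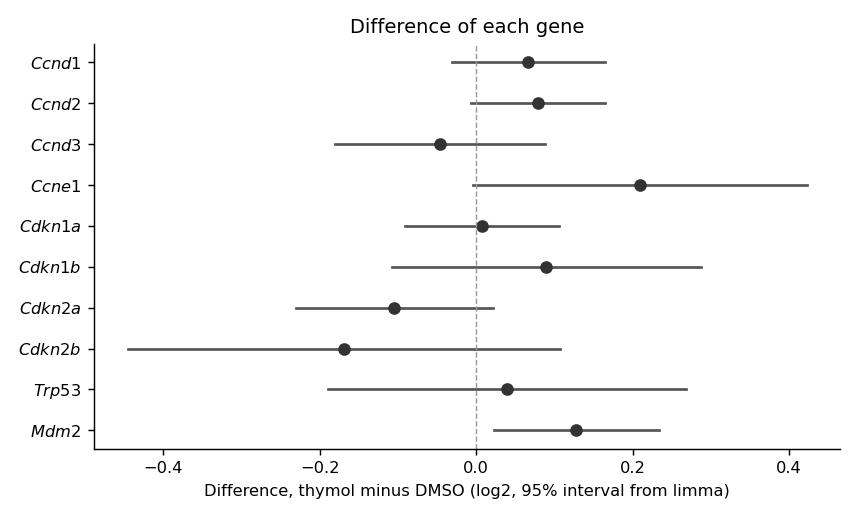
Difference between thymol and DMSO for each gene (log2 scale, horizontal axis), with points for the estimate and lines for the 95% interval from limma. The interval of *Mdm2* alone excludes 0, before any adjustment for the number of genes, and that of *Cdkn2b* is the widest.

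Ratios of *Mdm2* to *Trp53*, and of related inhibitors and D-type cyclins to each other, were compared as differences of log2 CPM within a library, given as mean ± SD over the 6 libraries of each group. *Mdm2* exceeded *Trp53* by 2.68 ± 0.20 in the DMSO group and 2.77 ± 0.33 in the thymol group (p = 0.58 by exact permutation). *Cdkn1a* exceeded *Cdkn1b* by 4.01 ± 0.19 and 3.92 ± 0.15 (p = 0.40 by exact permutation). *Cdkn2a* exceeded *Cdkn2b* by 3.13 ± 0.30 and 3.19 ± 0.14 (p = 0.65 by exact permutation). *Ccnd2* exceeded *Ccnd1* by 2.26 ± 0.072 and 2.27 ± 0.084 (p = 0.79 by exact permutation) and *Ccnd3* by 4.03 ± 0.14 and 4.15 ± 0.12 (p = 0.12 by exact permutation). None of these 5 ratios moved beyond the spread between libraries, and the p-values are two-sided and unadjusted.

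Like *Cdkn1a* and *Mdm2*, the other p53 targets showed no gene past the threshold. Of 41 measured p53 target genes 0 passed the threshold, against 2.22% of all genes. At an unadjusted p-value under 0.05, 4 were higher and 2 lower, which is 14.6% of the list against 11.8% of all genes, and the median difference was 0.041 (log2). The smallest p-values belonged to *Plk2*, a stress-induced kinase, and *Pltp*, a phospholipid transfer protein. *Plk2* was at 6.23 to 6.58 log2 CPM with DMSO and 6.53 to 6.83 with thymol, a difference of 0.24 (limma adjusted p = 0.11). *Pltp* differed by 0.37 (limma adjusted p = 0.21), and among the even-numbered libraries alone it passed the threshold, with a difference of 0.70 (limma adjusted p = 0.047, range over all settings 0.047 to 0.98), where the odd-numbered ones gave 0.042. The remaining targets at an unadjusted limma p-value under 0.05 were *Apaf1* (0.32) and *Sertad1* (0.19), higher, and *Fas* (-0.39) and *Notch1* (-0.45), lower. Among some other well-known targets, chosen for mention after their values were seen, the differences were 0.043 for *Ccng1*, -0.055 for *Phlda3*, -0.016 for *Zmat3* and 0.028 for *Gdf15*. *Ccng1*, *Phlda3*, *Zmat3* and *Gdf15* had at least 371 reads in every library.

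Of 24 measured regulators of p53, 0 passed the threshold, and 3 were higher at an unadjusted p-value under 0.05 (12.5% of the list, against 11.8% of all genes), with a median difference of 0.030 (log2). The nucleolar protein gene *Npm1* differed by 0.18 (limma adjusted p = 0.19), from a median of 7.63 log2 CPM to 7.81. *Hipk2*, a kinase that phosphorylates p53, differed by 0.26 (limma adjusted p = 0.24), and *Mdm4*, the partner of *Mdm2* and chosen after its value was seen, by -0.15 (limma adjusted p = 0.57).

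The other genes of G1/S control, 37 of which were measured, comprised the kinases, the retinoblastoma and E2F families and the ubiquitin ligases that degrade cyclins and p27. Of these, 0 passed the threshold, and 2 were higher at an unadjusted p-value under 0.05 (5.41% of the list, against 11.8% of all genes), with a median difference of 0.057 (log2). *Tfdp1*, the dimer partner of E2F factors, differed by 0.32 (limma adjusted p = 0.30). *Cks1b*, which helps the ligase SCF-SKP2 to bind p27, differed by 0.15 (limma adjusted p = 0.35), and 5 of 6 thymol libraries were above every DMSO library. The kinases that the cyclins activate, chosen after their values were seen, differed by 0.11 (*Cdk4*), 0.050 (*Cdk6*) and 0.12 (*Cdk2*).

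Downstream of these regulators stood the E2F target and proliferation genes, 42 of which were measured. Their median difference was 0.18 (log2), where that of all genes was 0.0026, and 37 of 42 differences were above 0, against 50.9% of all genes. At an unadjusted p-value under 0.05, 13 were higher and 0 lower, which is 31.0% of the list against 11.8% of all genes. Only *Pcna*, the sliding clamp of DNA polymerases, passed the threshold over all genes (1 of 42, or 2.38%, against 2.22% of all genes). *Pcna* was at 4.37 to 4.97 log2 CPM with DMSO and rose to 4.93 to 5.27 with thymol, a difference of 0.49 ± 0.12 (SE, limma adjusted p = 0.017). The call was lost in 8 of 24 other settings: without DMSO replicate 1 (0.44), DMSO replicate 2 (0.43) or thymol replicate 3 (0.47), within the odd-numbered (0.48) and the even-numbered libraries (0.50), in limma without the variance trend, and with both exact tests. The difference between this list and the 10 cyclin, inhibitor and p53 genes was not tested.

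**Figure D4:**
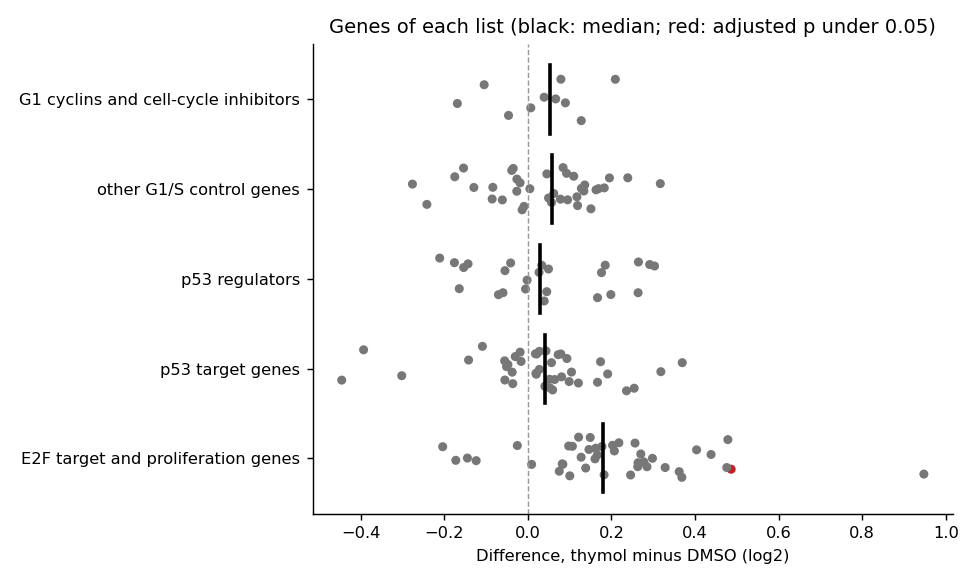
Difference between thymol and DMSO (log2 scale, horizontal axis) for every measured gene of 5 lists, with points for genes, black bars for the median of each list and red for an adjusted p-value under 0.05. The medians of the first 4 lists lie between 0.030 and 0.057, that of the E2F target and proliferation genes is 0.18, and *Pcna* is the 1 gene past the threshold.

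How the genes varied together was described by Pearson's r over the 12 libraries after the mean of each group had been subtracted. Over the 45 pairs of the 10 genes r ranged from -0.54 (*Cdkn1a* and *Cdkn2a*) to 0.78 (*Ccnd3* and *Cdkn1b*), with a median of 0.00077. Among 5393 other genes with a mean above 5 log2 CPM, the pattern most like that of *Cdkn1a* was that of *Lats2* (r = 0.89), followed by *BC005537*, *Tnks*, *Smc5* and *Yaf2* (0.88 to 0.86). For *Ccnd1* it was that of *Hoxb4* (r = 0.87), followed by *Lclat1*, *Fkbp15*, *Fbn1* and *Ubash3b* (0.85 to 0.82). These values are the highest among many genes over 12 libraries that share depth and culture, and they are given as a description.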

How the data were processed

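MAF libraries were made by the authors from 75 ng of total RNA with the QuantSeq 3′ FWD kit and 20 PCR cycles. The authors aligned reads to GRCm38 with STAR 2.5.3, counted them with HTSeq 0.6.1, retained genes that reached 30 reads in 6 or more libraries, and applied TMM scaling. The deposited table holds log2 values (log2 CPM with a prior count). Undoing the log gave steps of whole reads: 100% of the 60405 values below 200 reads came within 0.02 of an integer, and the reads were thereby recovered, 6798339 per library on average, with a prior of 1.96 reads. PCR reads are not independent molecules, and counting error alone is covered by depth.

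The log2 values were tested with limma 3.58.1 in R 4.3.3 (lmFit, eBayes with trend, 2 groups, no covariate, two-sided, Benjamini-Hochberg over 10697 genes, threshold 0.05), after a test on simulated data. The study's own test, which works on counts, was not run on the recovered reads, and voom on these reads was an alternative. Differences are thymol minus DMSO and are pulled towards 0 at low read numbers by the prior. Other alternatives were the variance trend, pseudocounts, scaling, a filter on low levels, leaving out each library, odd- and even-numbered libraries, the replicate block and exact tests. Named genes are the 10 members, the genes of each pathway list past the threshold (at most 3, or else the 2 with the smallest p-values) and the 5 genes most like *Cdkn1a* and *Ccnd1*. Members and lists were chosen with earlier results of these data known. Coordinates are from GENCODE vM21 (GRCm38) and promoter sequences from RefSeq (GRCm38.p6).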

Additional observations from a re-analysis of the deposited data

Results flagged for a closer look

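Gaps between libraries were examined in 22 groups of 6 (the read totals and the 10 genes, in each treatment) with Dixon's ratio, by which chance alone marks about 1 group in 20, and 2 groups were marked. *Cdkn1a* was 9.92 log2 CPM in DMSO replicate 4, while the next highest DMSO library had 9.75. Without that library the difference between thymol and DMSO was 0.041 (log2), and it did not pass the threshold. The read total of thymol replicate 5 was 9049796, and that of the thymol library nearest to it was 6585162.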

How the results depend on the processing

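Over 25 alternatives, the number of the 10 genes past the threshold stayed at 0 except under quantile normalization, where it was 1 (*Ccnd2*, 0.1425, adjusted p = 0.011). The sign turned for *Ccnd3* in the even-numbered libraries (0.0444), for *Cdkn1a* with median centring (-0.0036) and in the even-numbered libraries (-0.0248), for *Cdkn1b* in the odd-numbered libraries (-0.0006) and for *Cdkn2a* in the even-numbered libraries (0.0244). Leaving out 1 library at a time gave -0.0108 to 0.0413 for *Cdkn1a* and -0.04 to 0.1321 for *Trp53*, so the sign of neither is established, and the cause was not tested. Among all genes the count of 238 became 57 without the variance trend, 70 in the odd-numbered libraries (167 in the even-numbered ones), and 0 with the exact permutation test and 0 with the exact rank-sum test, whose smallest p-value is 0.00216. For p53 targets the count was 1 in the even-numbered libraries. For E2F target and proliferation genes, the 1 call became 0 without the trend and in the odd-numbered libraries, 2 with a pseudocount of 10 and 2 in the even-numbered libraries, where *Pcna* was not among them (adjusted p = 0.22), 3 with odd or even number as a term, and 0 to 3 when 1 library was left out. Libraries of equal number did not deviate together (r from -0.024 to 0.11, over 0.1 in 1 of 6 pairs, and 2 of 6 thymol libraries correlated best with their own number), so the numbers were not taken as pairs. The replicate block gave 332 genes in all, 0 of the 10 genes and 3 E2F target and proliferation genes. *Cdkn2b* has no value where genes with a mean below 5 log2 CPM were left out. Depth limits *Cdkn2b* most, where counting error alone gives an SD of 0.12 (log2).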
